A study of Homo sapiens with 6 samples.

Results

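The granins and the enzymes and inhibitors that process prohormones were followed across 6 RNA sequencing libraries of SH-SY5Y, a human neuroblastoma cell line of sympathetic origin. Members were the genes named CHGA, CHGB, SCG2, SCG3, SCG5, VGF, PCSK1, PCSK2, PCSK1N and CPE, taken by name from a table of 28752 genes. Of these 10, 8 were analysed, 7 had enough counts to be tested among 16458 genes, and PCSK1 and PCSK2 were not analysed here. The groups were cells transfected with OE-circSHPRH (3 libraries) and cells transfected with OE-NC (3 libraries), both collected 72 h later. The labels spell out neither OE nor NC, and OE-NC is read here as a negative control. They do not say whether transfection was transient or whether replicates were separate cultures, so p-values measure the spread between these libraries, which may be technical.

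Granins are acidic proteins that condense in the trans-Golgi network of neurons and endocrine cells and help to form dense-core granules, the stores from which peptides and catecholamines are released on stimulation. Many granins are also prohormones. Inside the granule, the convertases PCSK1 and PCSK2 cut prohormones at pairs of basic residues, carboxypeptidase E (CPE) trims the basic residues that are left, and small binding proteins hold the convertases in check. Chromaffin cells and sympathetic neurons, the lineage of neuroblastoma, are rich in granins, and chromogranin A is a widely used neuroendocrine marker.

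The libraries held 15645261 to 17591718 counts. SHPRH, counted over the whole gene so that circular, linear and construct RNA cannot be told apart, had 1395, 1121 and 1071 counts in OE-circSHPRH libraries, against 394, 409 and 472 in OE-NC libraries. Mitochondrially encoded RNA took 12.1%, 11.4% and 10.2% of the counts in OE-circSHPRH replicates 1 to 3, and 10.3%, 10.2% and 11.4% in OE-NC replicates 1 to 3. OE-circSHPRH replicates 1 and 2 and OE-NC replicate 3 thus stood apart as libraries with a high mitochondrial share. The cells carried noradrenergic markers: all 12 listed were tested, led by PHOX2A and HAND2. Their summed level was higher without overlap, 1727 to 1757 FPKM in OE-circSHPRH and 1659 to 1675 FPKM in OE-NC. Mesenchymal markers were also found. The 8 analysed of 9 listed summed to 194 to 202 FPKM in OE-circSHPRH and 190 to 205 FPKM in OE-NC. Of the Schwann cell markers, SOX10, which defines that lineage, averaged 0.03 FPKM, and all 7 listed summed to 3.12 to 3.84 FPKM in OE-circSHPRH and 3.42 to 4.66 FPKM in OE-NC. The part of these differences in the granin values below was not tested, and in bulk RNA fewer cells of a type and less RNA per cell cannot be told apart.

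The 8 members spanned the range from abundant to nearly silent. FPKM, counts scaled by gene length and library size, is the scale for comparing genes. VGF, a neurotrophin-inducible prohormone of the granin family, had the highest level, 302, 328 and 317 FPKM in OE-circSHPRH and 300, 317 and 300 FPKM in OE-NC, and ranked 70 among the 28752 genes by mean FPKM. CHGB, which encodes chromogranin B, followed with 205, 229 and 249 FPKM in OE-circSHPRH and 219, 221 and 205 FPKM in OE-NC. The 2 together gave 73.6% to 75.9% of the members' counts. PCSK1N, which encodes proSAAS, an inhibitor of PCSK1, lay at 95.2 to 113 FPKM over the 6 libraries. Its rank was 272, well above that of CPE, the carboxypeptidase, which ranked 1196 with 30.2 to 36.6 FPKM. SCG3, a granin that binds chromogranin A and the granule membrane, had 7.16 to 8.59 FPKM. Between neighbours in this order the ranges over the 6 libraries did not overlap, except between SCG2 and CHGA, at 57.7 to 68.3 and 53.4 to 65.0 FPKM. As a whole the members took 0.236%, 0.257% and 0.266% of all counts in OE-circSHPRH replicates 1 to 3 and 0.246%, 0.252% and 0.238% in OE-NC replicates 1 to 3. These shares overlapped between the groups. The lowest value in each group came from a library with a high mitochondrial share.

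**Figure D1:**
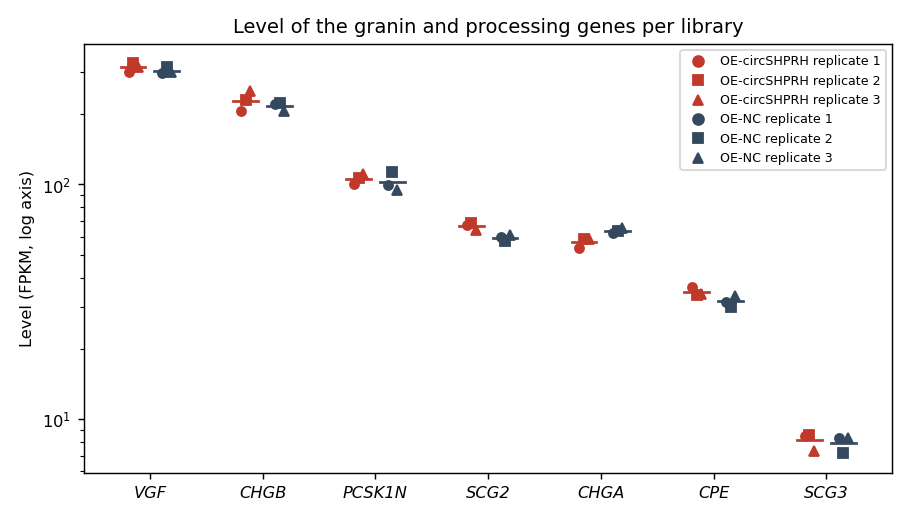
Level of the 7 members tested (FPKM, log axis), with 1 symbol per library and a line at each group mean; VGF and CHGB stand highest, SCG3 lowest near 8 FPKM, and SCG2 and CHGA swap places between OE-circSHPRH and OE-NC.

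SCG5 encodes secretogranin V, a chaperone and inhibitor of PCSK2. It had 4, 0 and 3 counts in OE-circSHPRH replicates 1 to 3 and 1, 1 and 0 counts in OE-NC replicates 1 to 3. A count of 0 allows up to 3 counts, or 0.192 CPM in OE-circSHPRH replicate 2 and 0.171 CPM in OE-NC replicate 3, counting error only. SCG5 was left out of the test, and at this depth no difference was detectable. It lies on chromosome 15 at 32641676 to 32697098, the same chromosome as SCG3 (51681353 to 51721031), so that a pair of granins on this chromosome stood at levels of 0.040 and 8.04 FPKM over all 6 libraries.

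Start sites of 8 members were in the RefSeq promoter table (GRCh38.p14), with 10 windows of 250 bases before and 50 from the start site on. CHGB and SCG2 had no window there. The cAMP response element TGACGTCA, a palindrome bound by CREB-family factors, was searched on both strands together with its shorter core TGACG, which every full element also holds. The full element stood in 3 of the 10 windows, those of CHGA, VGF and 1 of the windows of PCSK1, and in 1.85% of all 35116 windows. The shorter core stood in 8 of the 10 windows, against 24.6% of all windows. The windows of CHGA (chr14:92922900-92923199, plus strand), VGF (chr7:101165520-101165819, minus strand) and CPE (chr4:165378758-165379057, plus strand) are printed because they show the full element in a pair of well-expressed granins and the shorter core alone in the processing enzyme. Capitals mark TGACG on either strand, and thus the full element, and the core TATAA on either strand, which was searched after the windows had been read.
CHGA: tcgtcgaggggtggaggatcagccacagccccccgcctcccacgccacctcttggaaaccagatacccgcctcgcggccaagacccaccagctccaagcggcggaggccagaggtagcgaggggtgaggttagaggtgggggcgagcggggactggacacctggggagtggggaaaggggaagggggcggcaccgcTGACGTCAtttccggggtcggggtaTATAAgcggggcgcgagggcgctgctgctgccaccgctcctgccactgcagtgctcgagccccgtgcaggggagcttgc
VGF: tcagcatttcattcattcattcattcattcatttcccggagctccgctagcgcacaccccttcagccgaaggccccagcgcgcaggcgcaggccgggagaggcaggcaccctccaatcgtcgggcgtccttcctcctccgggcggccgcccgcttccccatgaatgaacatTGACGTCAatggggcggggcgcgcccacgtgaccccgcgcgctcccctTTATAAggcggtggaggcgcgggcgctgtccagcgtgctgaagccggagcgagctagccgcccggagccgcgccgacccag
CPE: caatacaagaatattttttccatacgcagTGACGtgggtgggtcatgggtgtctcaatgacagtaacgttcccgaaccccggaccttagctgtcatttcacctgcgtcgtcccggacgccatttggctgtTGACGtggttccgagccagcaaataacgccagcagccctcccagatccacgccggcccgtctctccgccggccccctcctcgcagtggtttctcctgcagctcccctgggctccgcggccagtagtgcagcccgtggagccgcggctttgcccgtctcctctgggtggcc
In CHGA the element lay 54 to 47 bases before the start site and TATAA 29 to 25 bases before it. In VGF the element lay 79 to 72 bases before the start site, and TATAA on both strands between 31 and 26 bases before it. The longer TATAAA was found on 1 strand of the VGF window and was not in those of CHGA and CPE. It stood in 11.5% of all windows, and TATAA in 20.4%. CPE had the shorter core beginning 221 and 120 bases before a start site that lies 17814 bases inside the deposited gene interval. The GC box GGGCGG, a motif of the factor SP1, was in 8 of the 10 windows on either strand and in 45.0% of all windows. These matches are letters in a window and say nothing of binding.

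None of the 7 members tested passed edgeR's quasi-likelihood test (Benjamini-Hochberg adjusted p under 0.05), against 31 of 16458 genes, or 0.188%, over the whole table. Limma-voom called 0 of the 7, against 0.213% of all genes. DESeq2 gave an adjusted p to 6 of the 7, SCG3 being the exception, and called 0 of these, against 1.19% of the 6455 genes to which it gave one. At an unadjusted p under 0.05 there were 3, CHGA, SCG2 and CPE, against 10.3% of all genes tested. For the same 3 genes the libraries of one group did not overlap those of the other, which held for 15.6% of all genes. The members were chosen with earlier results of these data known, so these shares describe them and test nothing. Their differences were small, between -10.8% for CHGA and 11.7% for SCG2, and the 95% intervals of the fold changes, not adjusted for the number of genes, ran from 0.835 to 1.19 over all 7. The median log2 fold change was 0.05 over the 7 members and 0.0018 over all genes, and 6 of the 7 were positive, against 50.8% of all genes. No table gene overlapped the members' intervals, apart from the pseudogene HADHAP1 within CPE, which had at most 2 counts in a library.

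CHGA, which encodes chromogranin A, a granule-forming granin and the precursor of peptides such as catestatin, was the only member with a negative log2 fold change. Its abundance was 167, 183 and 183 CPM in OE-circSHPRH replicates 1 to 3, against 195, 199 and 204 CPM in OE-NC replicates 1 to 3. Every OE-circSHPRH library was below every OE-NC library. CHGA (ENSG00000100604, chromosome 14, 92923080 to 92935293, plus strand) averaged 178 ± 9.19 CPM in OE-circSHPRH and 199 ± 4.47 CPM in OE-NC (SD, n = 3 each). The log2 fold change was -0.16 (SE 0.046, 95% interval -0.26 to -0.07), with an edgeR adjusted p of 0.168. In the authors' deposited table the adjusted p of CHGA was 0.0872, and in the DESeq2 fit here it was 0.0810.

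SCG2, the secretogranin II gene and source of the peptide secretoneurin, stood the other way round. It had 184, 188 and 175 CPM in OE-circSHPRH replicates 1 to 3, against 164, 159 and 167 CPM in OE-NC replicates 1 to 3. All OE-circSHPRH libraries were above all OE-NC libraries. SCG2 (ENSG00000171951, chromosome 2, 223596940 to 223602503, minus strand) averaged 182 ± 6.40 CPM in OE-circSHPRH and 163 ± 4.28 CPM in OE-NC (SD, n = 3 each). Its log2 fold change was 0.16 (SE 0.045, 95% interval 0.07 to 0.25), with an edgeR adjusted p of 0.168. The authors' deposited table gives an adjusted p of 0.0986, and the DESeq2 fit here gave 0.0915.

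For both genes the call depended on 1 library: without OE-circSHPRH replicate 3, the OE-circSHPRH library with a low mitochondrial share, CHGA passed with a log2 fold change of -0.19 (edgeR adjusted p = 0.0319) and SCG2 with 0.19 (edgeR adjusted p = 0.0242). That fit also called 142 genes higher and 169 lower over the whole table, so the background moved with it. With any other single library left out the adjusted p of CHGA was at least 0.332 and that of SCG2 at least 0.235. With the mitochondrial share class as a term, the edgeR adjusted p was 0.0526 for CHGA and 0.0891 for SCG2. That setting called 104 genes higher and 67 lower over the whole table. With replicate number as a term, the edgeR adjusted p was 0.476 for CHGA and 0.491 for SCG2. Between libraries of low mitochondrial share, mean log2 CPM differed by -0.11 for CHGA and 0.12 for SCG2. Between those of high share it differed by -0.22 for CHGA and 0.15 for SCG2. Each of these values has a single library on one side.

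**Figure D2:**
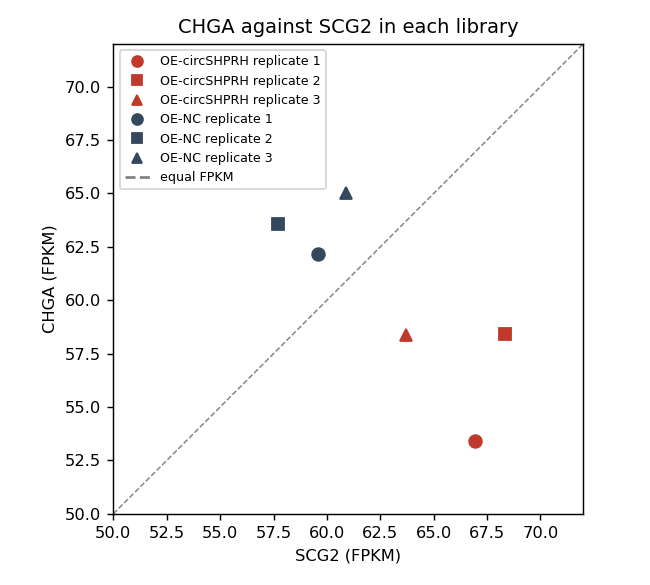
CHGA (vertical axis) against SCG2 (horizontal axis), both in FPKM, with 1 symbol per library and a dashed line at equal levels; the 3 OE-circSHPRH libraries lie below the line and the 3 OE-NC libraries above it.

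Per length, SCG2 was therefore above CHGA in all 3 OE-circSHPRH libraries and below it in all 3 OE-NC libraries. The ratio of CHGA to SCG2 counts does not depend on how libraries are scaled. It was 0.911, 0.975 and 1.04 in OE-circSHPRH replicates 1 to 3, against 1.19, 1.26 and 1.22 in OE-NC replicates 1 to 3, with no overlap. The mean log2 ratio was -0.04 in OE-circSHPRH and 0.29 in OE-NC, a difference of -0.32. This pair was chosen because its members were known to differ in direction without overlap, which fixes the separation of the ratio, so no test is given. The difference was -0.23 within the libraries of low and -0.37 within those of high mitochondrial share.

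CPE, which removes the C-terminal lysine and arginine residues after convertase cleavage, had 109, 101 and 103 CPM in OE-circSHPRH replicates 1 to 3, against 94.4, 90.2 and 100 CPM in OE-NC replicates 1 to 3. The groups did not overlap, but the lowest OE-circSHPRH library (100.9 CPM) and the highest OE-NC library (100.2 CPM) nearly touched. CPE (ENSG00000109472, chromosome 4, 165361194 to 165498320, plus strand) averaged 104 ± 4.40 CPM in OE-circSHPRH and 94.96 ± 5.01 CPM in OE-NC (SD, n = 3 each). The log2 fold change was 0.13 (SE 0.053, 95% interval 0.02 to 0.25, edgeR adjusted p = 0.361). It was 0.15 within the libraries of low and 0.07 within those of high mitochondrial share.

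**Figure D3:**
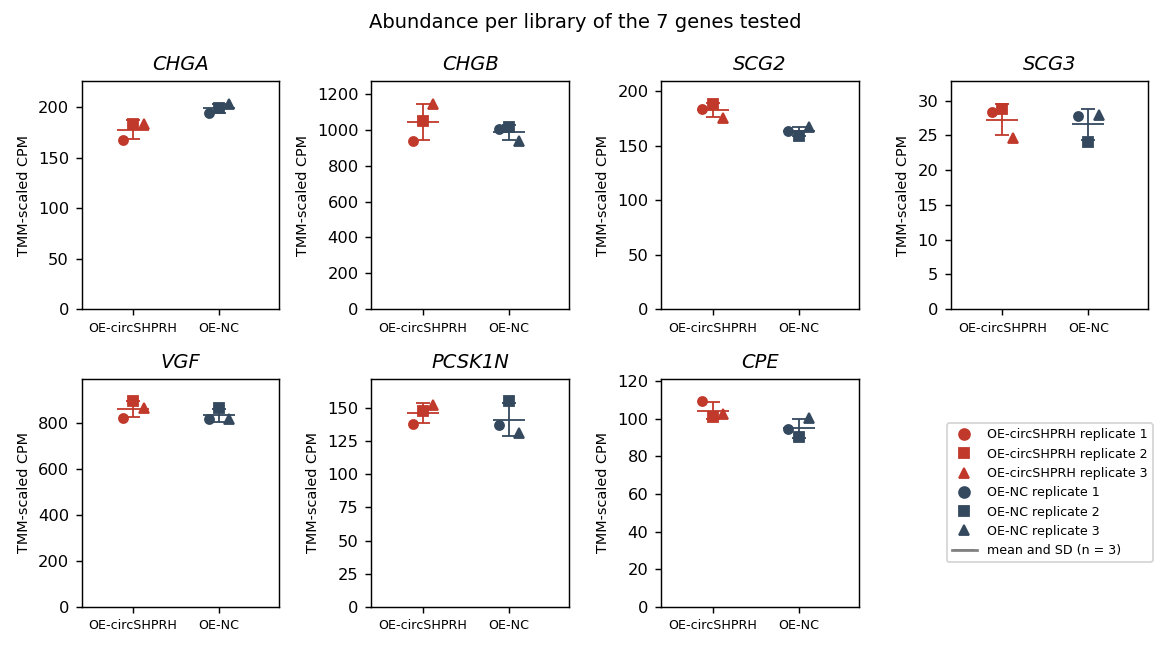
TMM-scaled CPM of the 7 members tested in each library (symbols), with group mean and SD (n = 3) and axes starting at 0; the groups do not overlap for CHGA, SCG2 and CPE and overlap for CHGB, SCG3, VGF and PCSK1N.

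The remaining granins overlapped between the groups. CHGB (ENSG00000089199, chromosome 20, 5911430 to 5925361, plus strand), the chromogranin with the highest level, varied most among OE-circSHPRH libraries of the granins tested. It had 939, 1051 and 1142 CPM in OE-circSHPRH replicates 1 to 3, against 1004, 1016 and 938 CPM in OE-NC replicates 1 to 3. Its coefficient of variation was 9.76% in OE-circSHPRH and 4.25% in OE-NC, and the log2 fold change was 0.08 (SE 0.055, 95% interval -0.03 to 0.20, edgeR adjusted p = 0.646). The highest CHGB value in OE-circSHPRH came from the library with a low mitochondrial share, and the lowest value in OE-NC from the library with a high share. Within these classes the difference was 0.18 for low-share and 0.08 for high-share libraries. With the share class as a term the log2 fold change of CHGB was 0.13 (edgeR adjusted p = 0.0891). With replicate number as a term it was 0.08 (edgeR adjusted p = 0.814).

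VGF (ENSG00000128564, chromosome 7, 101162509 to 101165593, minus strand) had 824, 896 and 868 CPM in OE-circSHPRH replicates 1 to 3, against 818, 866 and 819 CPM in OE-NC replicates 1 to 3. The groups overlapped, and the log2 fold change of 0.05 (SE 0.042, adjusted p = 0.765 by edgeR) had a 95% interval from -0.04 to 0.14. VGF shares the full cAMP response element with CHGA in the windows above. Any part of the element in the level of either gene was not tested. SCG3 (ENSG00000104112) had 28.4, 28.8 and 24.7 CPM in OE-circSHPRH replicates 1 to 3, against 27.8, 24.0 and 27.9 CPM in OE-NC replicates 1 to 3. One library per group was low, and the log2 fold change of 0.04 (SE 0.085, 95% interval -0.14 to 0.22, edgeR adjusted p = 0.928) was the least precise of the 7. Its sign turned to -0.02 with the mitochondrial share class as a term, and to -0.0015 without OE-circSHPRH replicate 2 or -0.032 without OE-NC replicate 2.

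Among the inhibitors, PCSK1N (ENSG00000102109, chromosome X, 48831094 to 48835633, minus strand) had 138, 147 and 153 CPM in OE-circSHPRH replicates 1 to 3. The values in OE-NC replicates 1 to 3 were 137, 155 and 131 CPM. OE-NC held both the highest and the lowest library, and the log2 fold change was 0.05 (SE 0.058, 95% interval -0.07 to 0.17, edgeR adjusted p = 0.840). Its sign also turned without OE-NC replicate 3, to -0.0047.

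**Figure D4:**
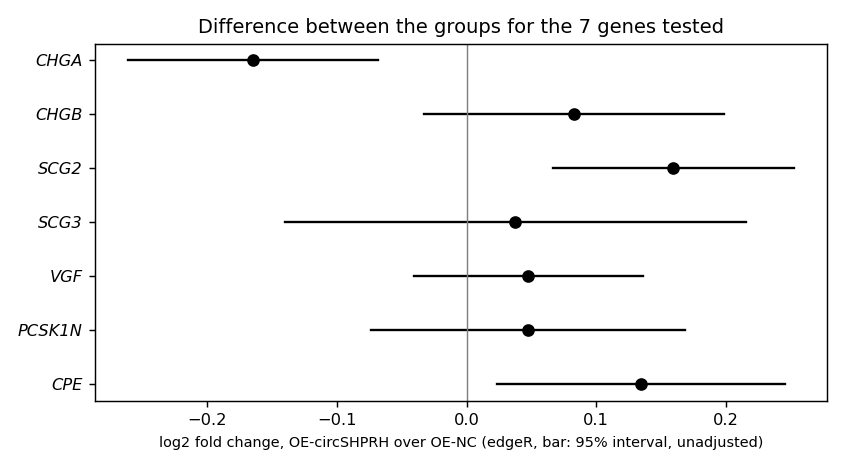
Log2 fold change of each member tested, OE-circSHPRH over OE-NC, with its unadjusted 95% interval (edgeR); only the intervals of CHGA, SCG2 and CPE leave out 0, and no gene passed after adjustment.

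The other genes of the regulated secretory pathway came from 6 lists. They hold 121 genes, of which 99 were analysed and 77 tested. None of the 77 was called by edgeR or by limma-voom. DESeq2 called 0 of the 38 to which it gave an adjusted p and gave none to the other 39, SLC18A1 and UNC13A among them. By edgeR 10 had an unadjusted p under 0.05, or 13.0%, against the 10.3% of all genes. Of these 10 genes, 9 were higher in OE-circSHPRH. Over the 77 genes 54 had a log2 fold change above 0, or 70.1%, against 50.8% of all genes, and the median was 0.05. For 16 the groups did not overlap, or 20.8%, against the 15.6% above. The lists were chosen with earlier results of these data known, so these shares describe them and test nothing.

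Of the other proprotein convertases, 5 of 7 were tested and 0 had an unadjusted p under 0.05. MBTPS1, a Golgi protease that activates sterol-regulated transcription factors, was the highest with 17.3 ± 0.765 FPKM in OE-circSHPRH and 16.8 ± 0.594 FPKM in OE-NC (SD, n = 3 each). FURIN, which cuts precursors of the constitutive pathway, had 8.06 ± 0.337 FPKM in OE-circSHPRH and 7.96 ± 0.475 FPKM in OE-NC (SD, n = 3 each). PCSK7, a related convertase, had the smallest p of the list, with a log2 fold change of -0.12 (SE 0.061, with adjusted p = 0.513 by edgeR). Of the carboxypeptidases and enzymes of C-terminal modification, 5 of 10 were tested. CPXM1, a carboxypeptidase-like protein, was the highest at 45.4 ± 1.16 FPKM in OE-circSHPRH and 44.4 ± 1.60 FPKM in OE-NC (SD, n = 3 each). PAM, which amidates peptides after CPE has acted, had 20.3 ± 0.785 FPKM in OE-circSHPRH and 18.1 ± 0.733 FPKM in OE-NC (SD, n = 3 each). Its groups did not overlap, with a log2 fold change of 0.17 (SE 0.047, with adjusted p = 0.169 by edgeR), a difference of the size of that of SCG2.

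Among the neuropeptide precursors that such enzymes act on, 10 of 34 were tested. NPY, the precursor of neuropeptide Y of sympathetic neurons, was the highest at 195 ± 6.37 FPKM in OE-circSHPRH and 174 ± 2.22 FPKM in OE-NC (SD, n = 3 each). Its groups did not overlap, and the log2 fold change was 0.16 (SE 0.043, adjusted p = 0.155 by edgeR). GAL, the galanin precursor, had 66.7 ± 2.98 FPKM in OE-circSHPRH and 70.3 ± 1.52 FPKM in OE-NC (SD, n = 3 each), with no overlap and a log2 fold change of -0.08 (SE 0.052, with adjusted p = 0.650 by edgeR). NPY thus lay between CHGB and PCSK1N in level, and GAL near SCG2 and CHGA.

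Of the genes of granule formation and granule membranes, 18 of 22 were tested. Of these, 14 had a positive log2 fold change, against 50.8% of all genes. CYB561, the cytochrome of the chromaffin granule membrane, had 111 ± 9.58 FPKM in OE-circSHPRH and 104 ± 2.94 FPKM in OE-NC (SD, n = 3 each). SV2A, a vesicle glycoprotein, had 28.7 ± 1.36 FPKM in OE-circSHPRH and 27.9 ± 0.886 FPKM in OE-NC (SD, n = 3 each). SLC18A1, which loads monoamines into granules, had the smallest p of the list and no overlap, with 6.10 ± 0.343 FPKM in OE-circSHPRH and 4.69 ± 0.257 FPKM in OE-NC (SD, n = 3 each). Its log2 fold change was 0.38 (SE 0.086, adjusted p = 0.0869 by edgeR). SLC18A1 passed with no low-count filter (edgeR adjusted p = 0.0128) and with the mitochondrial share class as a term (edgeR adjusted p = 0.0126), where NPY passed too (edgeR adjusted p = 0.0227). Over the whole table the first setting called 116 genes higher and 78 lower, and the second 104 and 67. The background thus moved with these settings too.

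Of the genes of granule docking and exocytosis, 25 of 30 were tested, with a median log2 fold change of 0.10. It was above 0 for 21 of them, against 50.8% of all genes. DOC2B, a calcium sensor for vesicle release, had 38.9 ± 1.54 FPKM in OE-circSHPRH and 40.5 ± 1.05 FPKM in OE-NC (SD, n = 3 each). SYT11, a synaptotagmin, had 26.9 ± 0.410 FPKM in OE-circSHPRH and 25.0 ± 0.471 FPKM in OE-NC (SD, n = 3 each), with a log2 fold change of 0.10 (SE 0.044, with adjusted p = 0.407 by edgeR). UNC13A, which primes vesicles, had the smallest p of the list, with a log2 fold change of -0.38 (SE 0.12, with adjusted p = 0.252 by edgeR) at 0.841 ± 0.0605 FPKM in OE-circSHPRH and 1.09 ± 0.121 FPKM in OE-NC (SD, n = 3 each). Of the transcription regulators of granule genes, 14 of 18 were tested, with a median log2 fold change of -0.0099. PHOX2A, a homeobox factor of noradrenergic neurons, had 459 ± 8.36 FPKM in OE-circSHPRH and 433 ± 4.96 FPKM in OE-NC (SD, n = 3 each), with a log2 fold change of 0.09 (SE 0.038, with adjusted p = 0.433 by edgeR). For HAND2, another factor of this lineage, the log2 fold change was -0.04 (SE 0.042, adjusted p = 0.810 by edgeR).

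**Figure D5:**
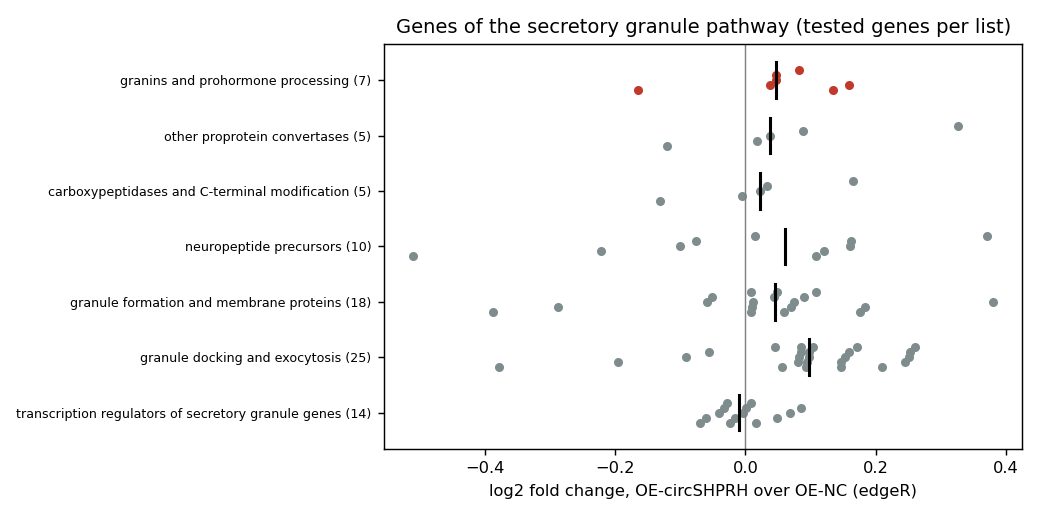
Log2 fold change (OE-circSHPRH over OE-NC, edgeR) of each tested gene by list, with the members in red, other genes in grey, a black line at each list's median and the number tested in brackets; the medians lie between -0.0099 and 0.10, and no gene shown passed the test.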

How the data were processed

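Raw read counts per gene and library were deposited by the authors without normalization, beside a size-factor-scaled count signal, FPKM values and their own group means, log2 fold change and p-value per gene. The deposited FPKM equal the count over gene length times 1 constant per library. The sources used here do not give the aligner, counter, use of strand or test. For CHGA and SCG2 the deposited log2 fold change and unadjusted p-value equal those of the DESeq2 fit here. The authors' values for these genes are therefore not a result separate from DESeq2. GRCh37 is the build per the submitters' processing notes, but all 28752 deposited gene coordinates equal those of GENCODE 29 on GRCh38, and are given so.

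Counts were filtered with filterByExpr (minimum count 10, total 15; 16458 genes kept), TMM-scaled and tested over the whole table with edgeR 4.0.16 (glmQLFit, glmQLFTest, two-sided, group as the only term) with Benjamini-Hochberg adjustment at 0.05. The standard error is the absolute log2 fold change over the square root of F. The code was tested on simulated data. DESeq2 1.42.0 and limma 3.58.1 (voom, and log2 FPKM with pseudocounts of 1 and 0.1), other scalings, a replicate block, the class of mitochondrial share and leaving out each library were alternatives. One count equals 0.0568 to 0.0639 CPM. Members and gene lists were chosen with earlier results of these data known. Beside the members, the text names the 2 genes of highest mean FPKM and the gene of smallest p per pathway list, and the 2 highest per marker list, of which 1 is not reported here. A planned comparison of protein sequences and the PCSK1N to PCSK1 ratio were not run.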

Additional observations from a re-analysis of the deposited data

How the results depend on the processing

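The sign held in all 15 alternatives for CHGA, CHGB, SCG2, VGF and CPE, and the side of the threshold in all but 1, where CHGA and SCG2 passed without OE-circSHPRH replicate 3. With single libraries left out, the log2 fold change ran from -0.19 to -0.12 for CHGA (edgeR adjusted p 0.0319 to 0.470), 0.14 to 0.19 for SCG2 (0.0242 to 0.550), 0.0132 to 0.15 for CHGB, 0.0195 to 0.08 for VGF and 0.10 to 0.17 for CPE. It ran from -0.032 to 0.11 for SCG3 and from -0.0047 to 0.12 for PCSK1N, and was -0.0157 for SCG3 with the mitochondrial share class as a term. The CHGA to SCG2 log2 ratio difference ran from -0.37 to -0.28. Counts of genes over the whole table, 21 higher and 10 lower, were 116 and 78 without the low-count filter, 49 and 28 with DESeq2, and 104 and 67 with the mitochondrial share class as a term. With a library left out they ran from 4 to 142 higher and from 1 to 169 lower, so the background share is itself uncertain. They were lower without OE-circSHPRH replicate 1 (17 and 7), OE-circSHPRH replicate 2 (4 and 1), OE-NC replicate 1 (4 and 2), OE-NC replicate 2 (7 and 4) and OE-NC replicate 3 (13 and 6), and with library totals in place of TMM (14 and 8). Members called ran from 0 to 1 in each direction. In the pathway lists 1 gene was higher without the filter, 2 with the share class, and 0 to 3 with a library left out. The causes were not tested.

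Libraries of the same replicate number did not deviate alike: deviations from the group means correlated at -0.05, -0.03 and -0.13 for replicates 1, 2 and 3. Between libraries of unlike number the correlations ran from -0.055 to 0.10. Whether the libraries were cultured or prepared in pairs cannot be told from these values. With the replicate block 4 genes were higher and 2 lower over the whole table, and no member was called (CHGA edgeR adjusted p = 0.476, SCG2 0.491). With 3 libraries per group, differences of the size seen for VGF, PCSK1N and SCG3 lay within the standard errors or little above them.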

Other observations

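Without OE-circSHPRH replicate 3, PAM (log2 fold change 0.20, edgeR adjusted p = 0.0199), ICA1 (0.21, adjusted p = 0.0264) and SYT1 (0.19, adjusted p = 0.0355) were the pathway genes that passed beside CHGA and SCG2. ICA1, a protein of granule membranes, and SYT1, a calcium sensor of release, were chosen after their values were seen. Of the 12 noradrenergic markers, edgeR called 0, against 0.188% of all genes tested. At an unadjusted edgeR p under 0.05 there were 5, against 10.3% of all genes tested. These 5 were higher in OE-circSHPRH, and 4 of the 12 had a log2 fold change below 0. The list was chosen with earlier results of these data known, so these shares describe it and test nothing. DESeq2 called 2 of the 11 to which it gave an adjusted p, against 1.19% of all such genes. These were CHRNA3 (adjusted p = 0.00255) and DBH (adjusted p = 0.0407), also chosen after their values were seen. CHRNA3, a nicotinic receptor subunit, had 87.9 ± 1.81 FPKM in OE-circSHPRH and 77.9 ± 1.47 FPKM in OE-NC (SD, n = 3 each), with an adjusted p of 0.0869 by edgeR and 0.0461 by limma-voom. DBH, the granule enzyme that makes noradrenaline, had 73.8 ± 0.671 FPKM in OE-circSHPRH and 66.5 ± 1.31 FPKM in OE-NC (SD, n = 3 each), with an edgeR adjusted p of 0.149. Of the mesenchymal markers, COL3A1 (67.6 ± 1.04 FPKM in OE-circSHPRH and 67.7 ± 1.56 FPKM in OE-NC) and TWIST1 (61.2 ± 3.96 FPKM in OE-circSHPRH and 62.8 ± 4.78 FPKM in OE-NC) had the highest levels (SD, n = 3 each). S100B led the Schwann cell list at 2.33 FPKM over all 6 libraries, and CD14 and CD79A were the immune markers analysed, at 0.446 and 0.0322 FPKM.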
